A study of Homo sapiens with 8 samples.

Results

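Gene expression was compared between 3D and 2D culture in A549, an established human lung adenocarcinoma line with no activating EGFR mutation. The comparison used 4 of the 8 arrays of the series, all of the A549 arrays, and the other 4 were of the EGFR-mutant lung cancer line HCC827. Each condition had 1 array, so there were no replicates. The 4 cultures were A549 in 2D without inhibitor, A549 in 2D with gefitinib, A549 in 3D without inhibitor and A549 in 3D with gefitinib. Gefitinib, a small-molecule inhibitor of the EGFR kinase, was used at 1 µM. The 2D cells grew for 7 days after 200000 were plated in a 21 cm2 dish. The 3D cells grew for 14 days on a collagen scaffold, without flow, after seeding of 100000. In 3D gefitinib was present for 3 days, from day 11. The labels also give a start at day 4, in a sentence that names 3D again, and give no duration for it, so the schedule of the 2D culture is not certain. The cultures differed in length, seeding, cell lysis (metal beads in 3D, at 50 Hz for 5 min) and RNA column kit as well as in their dimension, and these cannot be told apart.

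Each gene was given a pair of subtractions, 3D minus 2D in the control pair of arrays and 3D minus 2D in the gefitinib pair. Values are log2 signals, so a difference of 1 is 2-fold. Of 18244 genes measured, 10968 lay above the array median in at least 2 of the 4 A549 arrays and were tested. The test was limma with treatment as the pairing term and Benjamini-Hochberg adjustment over all genes tested. A gene is said to rise or fall where its adjusted p was under 0.05 and it differed 2-fold or more in the same direction in both pairs. The standard error (±) is that of limma, which draws the spread between a gene's pairs strongly towards that of genes of similar level. It therefore measures neither how far the pairs of a single gene differ nor replicate scatter.

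Tumour cells on a scaffold can grow in layers, in which oxygen and nutrients reach inner cells by diffusion. When oxygen is short, the transcription factor HIF escapes destruction by prolyl hydroxylases and induces genes for glycolysis, blood vessel growth and collagen hydroxylation. Genes for DNA synthesis and mitosis are expressed in cycling cells and are low in cells that have left the cycle. BMP signals induce the ID genes, and the insulin-like growth factors (IGFs) are held by secreted binding proteins. A549 is known for a constitutively active NRF2 oxidative defence programme and for secreting liver-type plasma proteins.

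In A549, 634 genes rose in 3D (5.78% of those tested) and 204 fell (1.86%). The rising genes were led by the lipase inhibitor ANGPTL4, the growth factor binding protein IGFBP5, the plasma iron carrier TF and the nuclear RNA MALAT1. The falling genes were led by the differentiation inhibitors ID4 and ID2, the mitotic cyclin CCNB1, the citric acid cycle enzyme subunit SUCLA2 and the signal recognition particle subunit SRP9. The lists of hypoxia response, IGF binding and NF-kB feedback genes held rises and no falls, and those of mitosis, DNA replication and mitochondrial respiration held falls and no rises. The shares over all genes, 5.78% and 1.86%, stand beside every list count below. A list with a single call or without falls lies near these shares.

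Some short promoter sequences are shown first, for a pair of rising hypoxia genes and a pair of falling mitosis genes. They hold the letters of motifs that the literature ties to these programmes. Each is the run of 250 bases before the gene's start in RefSeq, assembly GRCh38.p14, written 5′ to 3′ on the gene's strand. In the hypoxia genes capitals mark ACGTG, the core of the hypoxia response element, found there on the reverse strand as CACGT. In the mitosis genes they mark TTTGAA, a form of the cell cycle homology region, or its reverse complement TTCAAA. The window of the mitosis gene DLGAP5 also holds the hypoxia core, left in lower case. The windows are chr19:8363905-8364154 (plus strand) for ANGPTL4, chr10:73096867-73097116 (minus strand) for the collagen prolyl hydroxylase P4HA1, chr2:26785806-26786055 (plus strand) for the centromere histone CENPA and chr14:55191586-55191835 (minus strand) for the spindle protein DLGAP5.
ANGPTL4: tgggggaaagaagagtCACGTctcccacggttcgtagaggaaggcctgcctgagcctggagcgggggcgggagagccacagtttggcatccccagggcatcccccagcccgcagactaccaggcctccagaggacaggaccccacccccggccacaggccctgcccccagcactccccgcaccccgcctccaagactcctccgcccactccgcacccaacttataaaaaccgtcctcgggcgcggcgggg
P4HA1: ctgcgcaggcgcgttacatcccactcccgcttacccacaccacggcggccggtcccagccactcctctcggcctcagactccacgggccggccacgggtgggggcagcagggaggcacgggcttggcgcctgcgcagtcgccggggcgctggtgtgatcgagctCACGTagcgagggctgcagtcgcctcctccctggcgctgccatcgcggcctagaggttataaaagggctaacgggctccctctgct
CENPA: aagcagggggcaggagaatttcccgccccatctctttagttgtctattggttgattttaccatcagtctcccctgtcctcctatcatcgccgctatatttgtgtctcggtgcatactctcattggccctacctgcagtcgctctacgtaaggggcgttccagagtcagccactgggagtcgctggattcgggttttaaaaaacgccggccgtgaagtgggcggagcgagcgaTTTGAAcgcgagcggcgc
DLGAP5: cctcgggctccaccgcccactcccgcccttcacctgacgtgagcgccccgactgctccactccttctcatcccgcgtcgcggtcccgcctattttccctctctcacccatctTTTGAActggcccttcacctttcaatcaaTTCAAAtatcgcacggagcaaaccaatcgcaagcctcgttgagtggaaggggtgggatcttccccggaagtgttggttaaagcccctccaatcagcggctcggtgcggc
The match began 234 bases before the start in ANGPTL4, 86 before it in P4HA1 and 18 before it in CENPA. In DLGAP5 the matches began 138 and 109 bases before the start. ACGTG or GCGTG, on either strand and with overlaps allowed, occurred in 21 of the 26 tested hypoxia genes with a promoter in the table (80.8%). It occurred in 8 of the 13 that rose (61.5%) and in 57.6% of the 9087 promoters of tested genes. Mitosis genes held it as well, in 18 of 28 tested (64.3%) and 4 of the 8 that fell (50.0%). Over all called genes with a promoter it occurred in 55.8% of those that rose and in 65.5% of those that fell. TTTGAA or TTCGAA, searched in the same way, occurred in 14 of 28 tested mitosis genes (50.0%), in 3 of the 8 that fell (37.5%) and in 9.61% of tested genes' promoters. Over all 27305 promoters given, the shares were 43.1% and 14.6%. A match describes the letters in this window and nothing about binding.

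The RNA on the 3D and 2D arrays differed in the control probe sets too. Actin signal from the 3' end minus that from the 5' end was 1.67 (control) and 1.74 (gefitinib) in 3D, against -0.05 and -0.14 in 2D. For GAPDH it was 0.55 and 0.54 in 3D, against -0.03 and -0.04. The Alu repeat control probe set stood at 15.41 and 15.15 in 3D and at 14.02 and 14.22 in 2D. Array medians lay between 7.30 and 7.34. The same-culture arrays correlated at 0.995 (3D) and 0.996 (2D) across probe sets, and arrays of different culture at 0.945 to 0.950; probe sets are not independent replicates. The part of RNA integrity in the differences below was not tested, and the agreement between a gene's probe sets is given with them. Bulk arrays cannot tell fewer cells of a kind from less RNA per cell.

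All 8 markers of A549 (keratins, EPCAM, aldehyde dehydrogenases and aldo-keto reductases) were above the filter, with summed log2 signals between 106.0 and 106.8 in the 4 arrays. The sum does not show that EPCAM fell, from 9.74 and 9.77 in 2D to 7.72 and 7.90 in 3D. No other of the 8 was called. All 6 fibroblast markers lay below the filter, at 5.83 to 7.66, and so did all 4 endothelial markers, at 6.53 to 7.60. Of the 5 leukocyte markers 3 passed the filter. CD68, also a lysosomal protein of other cells, was at 0.79 ± 0.09, LYZ at 0.67 ± 0.11 and CD14 at -0.04 ± 0.10, and none was called. The defining leukocyte marker PTPRC was at 6.08 and 6.04 in 2D and at 5.95 and 5.93 in 3D, near background. The 5 summed to 37.0 and 37.1 in 2D and to 38.3 and 38.5 in 3D. The 3 smooth muscle markers summed to 22.7 and 23.3 in 2D and to 23.0 and 22.9 in 3D. The part of other cells in the results was not tested.

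The pairs differed in the same direction for 9760 of the 10968 genes. The difference between the pairs had an SD of 0.20, and 0 genes were 2-fold higher in one pair and 2-fold lower in the other. At least 4-fold in both pairs, 31 genes rose and 6 fell, and at least 8-fold, 5 and 1. All 838 genes that differed 2-fold or more in both pairs passed the adjusted p. Under the adjusted p alone, 43.6% of genes were higher and 23.5% lower. The median of all tested genes was 0.15 above 0. Rises made up 75.7% of the calls, but 49.2% when each array was centred on its median over genes, where 377 rose and 390 fell, and 54.0% when the probe sets of a gene were averaged, where 276 rose and 235 fell. The ratio of rises to falls therefore depends on the scaling and on the probe set. The genes whose pairs differed most were chosen by the size of that difference. They were the netrin receptor NEO1 (0.05 in the control pair, 1.33 in the gefitinib pair), C2orf72 (0.05 and 1.19), the topoisomerase TOP2A (0.13 and -0.99) and IGFBP5 (4.45 and 3.38). Only the last of these 4 was called.

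**Figure D1:**
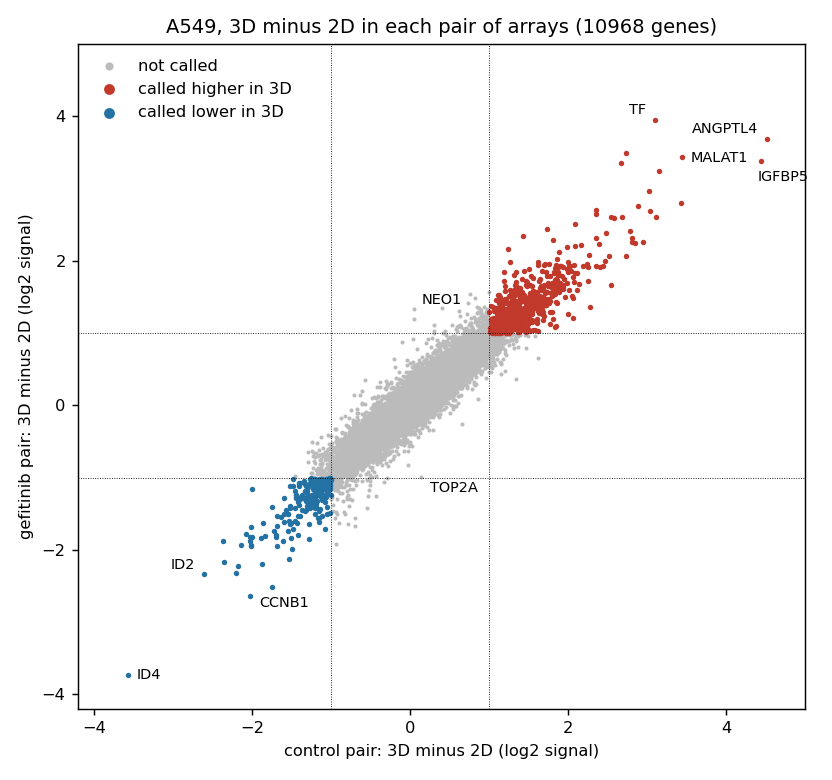
Each point is 1 of 10968 genes, with its 3D minus 2D difference (log2 signal) in the control pair of A549 arrays on the horizontal axis and in the gefitinib pair on the vertical axis. Dotted lines mark a 2-fold difference. Red and blue points are the 634 genes that rose and the 204 that fell, and no gene lies beyond the lines in opposite directions.

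The largest rises whose other probe sets all had the same direction ran from 2.65 to 4.10 in log2 difference over 12 genes. ANGPTL4, an inhibitor of lipoprotein lipase, stood at 7.56 and 7.62 in 2D (control, gefitinib) and at 12.08 and 11.31 in 3D. The 3D arrays were both above the 2D arrays, by a mean of 4.10 ± 0.16 (17.2-fold, limma adjusted p = 3.313e-07). IGFBP5, which binds insulin-like growth factors, stood at 6.58 and 7.15 in 2D and at 11.03 and 10.52 in 3D, a difference of 3.91 ± 0.19 (15.1-fold). It went from below the array median to well above it in both pairs. Its 5 other probe sets were higher too but by less, at 0.28, 0.60, 0.80, 0.89 and 1.40, and the average over its probe sets was 1.31. The angiotensin receptor AGTR1 stood at 8.90 and 8.55 in 2D and at 12.06 and 11.80 in 3D. Its difference was 3.16 in the control pair and 3.24 in the gefitinib pair (9.19-fold in the mean, SE 0.08). The type VII collagen gene COL7A1, whose product forms anchoring fibrils below epithelia, stood at 9.36 and 9.78 in 2D and at 12.47 and 12.38 in 3D. It rose by 2.86 ± 0.12 and had only 1 probe set. The noncoding RNA FER1L4 rose by 3.11 ± 0.13 and CCDC183 by 2.86 ± 0.10. The other 6 of the 12 were MALAT1, NDRG1, SRRM2, MUC5B, ALDOC and EGLN3, described with their groups. TF, whose difference of 3.52 was the third largest of the genes named, is not among the 12 because 1 of its 3 other probe sets differed in direction.

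The largest falls by the same rule ran from -1.95 to -3.66 over 12 genes. ID4 led them. Of the other 11, SDHD, SUCLA2 and MRPL19 act in mitochondria, CCNB1 and PBK in mitosis, and ID2 and ID3 are BMP targets. Carbonic anhydrase CA2 stood at 9.30 and 8.79 in 2D and at 6.93 and 6.91 in 3D, which is below the array median. The adhesion molecule EPCAM, an epithelial surface marker, stood at 9.74 and 9.77 in 2D and at 7.72 and 7.90 in 3D. It fell by 1.95 on the log2 scale (3.85-fold lower, limma adjusted p = 4.905e-07), and both of its other probe sets were lower too, with a median of -1.89. Of the others, SRP9, a subunit of the signal recognition particle, stood at 11.49 and 11.67 in 2D and at 9.29 and 9.36 in 3D. PBK, a mitotic kinase, and GCLM, a subunit of glutathione synthesis, differed by -2.04 ± 0.10 and -1.97 ± 0.08. Adjusted p ran from 5.277e-08 to 6.835e-07 over the 12 rises and from 5.277e-08 to 9.676e-07 over the 12 falls. In a fit over all 8 arrays, 10 of each 12 passed. That fit gives the same A549 differences, but its spread takes in the HCC827 arrays. Their 2D pair opposes its labels, so this fit cannot test the A549 calls on their own.

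**Figure D2:**
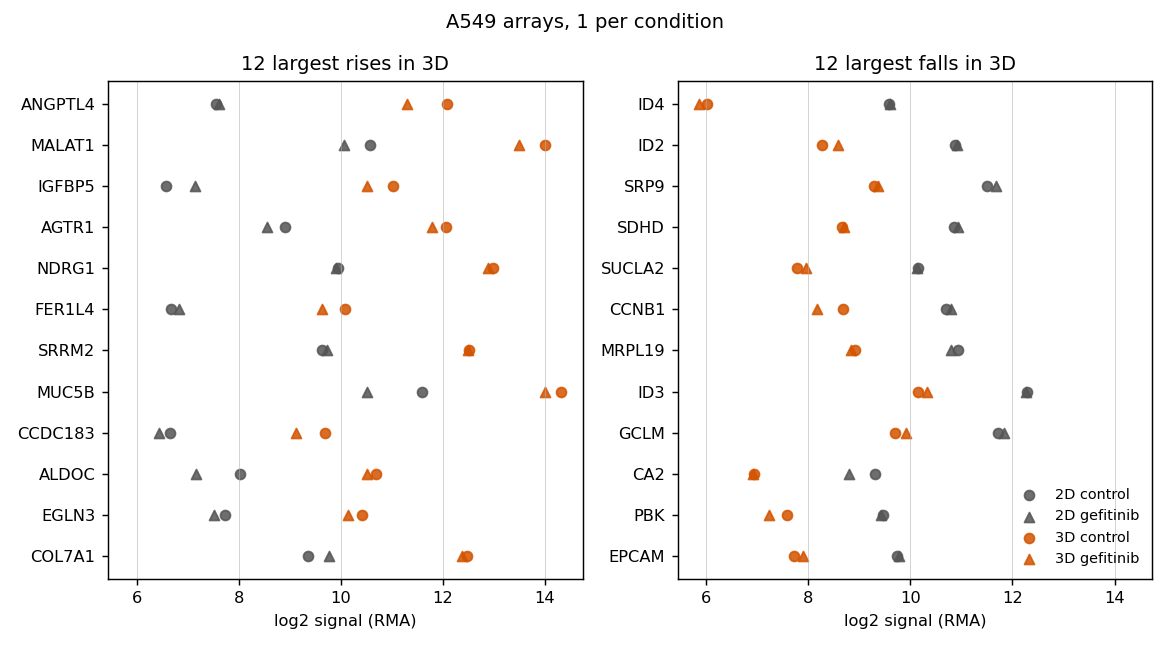
Points are the log2 signals of the 4 A549 arrays for the 12 genes with the largest rises (left) and the 12 with the largest falls (right) in 3D, grey for 2D and orange for 3D, circles for control and triangles for gefitinib. In each gene both orange points lie on the same side of both grey points, such as ID4 at 9.58 and 9.60 in 2D against 6.01 and 5.86 in 3D.

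Hypoxia response genes were mostly higher in 3D. Of 30 tested members, 16 rose and 0 fell, against 5.78% and 1.86% of all genes, and the list's median difference was 1.23 beside 0.15 for all genes. VEGFA, the main growth factor for blood vessels, stood at 9.01 and 9.25 in 2D and at 11.48 and 11.25 in 3D, a rise of 2.23 ± 0.11 (4.70-fold). NDRG1, a stress-induced gene, stood at 9.95 and 9.92 in 2D and at 12.98 and 12.88 in 3D. The oxygen-sensing prolyl hydroxylase EGLN3 stood at 7.74 and 7.52 in 2D and at 10.42 and 10.14 in 3D. In each of these both 3D arrays stood clear of both 2D arrays. Of the enzymes, the collagen hydroxylase P4HA1 rose by 2.04 ± 0.11, the glycolytic regulator PFKFB4 by 2.60 ± 0.10 and PDK1, the kinase that shuts pyruvate out of the citric acid cycle, by 1.85 ± 0.09. The MYC antagonist MXI1 (1.76), the histone demethylases KDM3A (1.72) and KDM4B (1.36), the vasodilator peptide ADM (1.63), the secreted STC2 (1.47), the glucose transporter SLC2A1 (1.32) and the mitophagy receptor BNIP3L (1.14) rose as well. Not every member did so. The lysyl oxidase LOX differed by -0.01 ± 0.08 (adjusted p = 0.915), and EGLN1, the main oxygen sensor of the family, by -0.38 ± 0.08, below 0 in both pairs but under 2-fold. ERO1A and the glycogen enzyme GBE1 were at -0.32 and -0.30. Among the most abundant members not called, CA12 (0.98), DDIT4 (0.79) and PFKFB3 (0.91) passed the adjusted p but stayed under 2-fold in at least 1 pair. Of the 13 called members with other probe sets, 9 had all of them higher. In PFKFB4 the other probe sets ran from 0.15 to 0.59 and in MXI1 from 0.15 to 0.34, all under 2-fold. PPP1R3C, a glycogen-targeting subunit, rose by 1.64 while its other probe set was at -0.01. With probe sets averaged 9 members were called, and 8 passed in the fit over all 8 arrays.

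Glycolytic enzymes followed the same direction to a smaller extent, with 5 of 17 members rising, 0 falling and a median of 0.74. ALDOC, the brain-type aldolase, stood at 8.03 and 7.16 in 2D and at 10.70 and 10.51 in 3D, and rose by 3.01 ± 0.14 (8.06-fold). ENO2 (1.76 ± 0.09), HK2 (1.43 ± 0.08), GPI (1.21 ± 0.12) and PFKL (1.09 ± 0.09) rose, though the second probe set of HK2 was at -0.01. Of the 3 called members with other probe sets, only 1 had all of them higher. In the fit over all 8 arrays ENO2 (limma adjusted p = 0.117), HK2 (0.182), GPI (0.192) and PFKL (0.0632) did not pass, and ALDOC did. Their A549 differences were the same in that fit, whose spread takes in the HCC827 arrays. The most abundant members, GAPDH (0.58), LDHA (0.56) and ALDOA (0.86), passed the adjusted p without reaching 2-fold in both pairs. With arrays centred on their median, 3 members were called.

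Genes of the IGF and insulin axis rose in 5 of 12 cases, with a median of 1.14 and 0 falls. IGFBP1, like IGFBP5 a secreted binder of IGFs, stood at 11.08 and 11.31 in 2D and at 13.92 and 13.56 in 3D, a rise of 2.55 ± 0.14. IGFBP4 (1.60 ± 0.11), IGFBP3 (1.44 ± 0.11) and the insulin receptor INSR (1.48 ± 0.09) rose too. Of the 4 called members with other probe sets, 2 had all of them higher. The average over probe sets was 0.58 for IGFBP4, 0.76 for IGFBP3 and 0.64 for INSR. The second probe set of IGFBP3 was at 0.08, and IGFBP3 did not pass in the 8-array fit (limma adjusted p = 0.0681). The other IGF binding proteins did not share one direction. IGFBP6 differed by 1.12 ± 0.11 and IGFBP7 by -0.81 ± 0.09, neither 2-fold in both pairs, and IGFBP2 was at -0.13 (adjusted p = 0.239). The receptor IGF1R (0.91) and the adaptor IRS2 (0.76 in the control pair, 1.54 in the gefitinib pair) were not called. INSR is also a target of the transcription factor FOXO, of which 3 of 14 targets rose, INSR with TXNIP (1.41 ± 0.09) and KLF6 (1.21 ± 0.09), which did not pass with 8 arrays (limma adjusted p = 0.113). With probe sets averaged, 2 of the IGF genes and 0 of the FOXO targets were called.

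In the BMP response, 4 of 13 members fell and 0 rose, with a median of -0.37. BMPs are secreted signals that act through SMAD proteins to induce the ID genes, whose products block basic helix-loop-helix factors. ID4 stood at 9.58 and 9.60 in 2D and at 6.01 and 5.86 in 3D, where the medians of the arrays' background probe sets were 6.02 and 5.99. Its 3D signal was thus not above background, so its measured difference of -3.66 sets no exact fold. ID2 stood at 10.88 and 10.91 in 2D and at 8.27 and 8.57 in 3D, and ID3 at 12.29 and 12.26 in 2D and at 10.15 and 10.33 in 3D. ID1, the most abundant of the family, stood at 13.32 and 13.46 in 2D and at 12.92 and 12.85 in 3D, a difference of -0.50 ± 0.11 that passed the adjusted p (0.00247) but was under 2-fold. The ligand BMP2 fell, at -1.35 ± 0.10 (but limma adjusted p = 0.102 with 8 arrays), while the ligand BMP4 was at 1.05 ± 0.10 and not called. The inhibitory SMAD7 was at -0.72 ± 0.08 and SMAD6 at 0.03 ± 0.08, both not called. All other probe sets of ID4, ID3 and BMP2 were lower too.

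Mitosis genes fell in 9 of 34 cases, with 0 rises and a median of -1.04. Without the 2-fold rule, 30 passed as lower and 0 as higher. CCNB1, the cyclin that drives entry into mitosis, stood at 10.70 and 10.80 in 2D and at 8.67 and 8.16 in 3D, and fell by 2.34 on the log2 scale (SE 0.13). The spindle checkpoint gene MAD2L1 stood at 10.18 and 9.90 in 2D and at 8.18 and 8.08 in 3D. BUB1 (-1.57 ± 0.13), the spindle factor TPX2 (-1.39 ± 0.13), CENPA (-1.38 ± 0.11), NEK2, DLGAP5, CCNA2 and BUB1B fell too. The list's median was -0.77 in the control pair and -1.27 in the gefitinib pair, and the change between pairs was not tested. Some well-known proliferation genes did not pass. MKI67 stood at 9.02 and 8.97 in 2D and at 9.05 and 8.40 in 3D, a difference of -0.27 ± 0.13 (adjusted p = 0.0896), with 4 of its 5 other probe sets lower and their median at -0.60. TOP2A was at -0.43 ± 0.20 (limma adjusted p = 0.0847) and the mitotic transcription factor FOXM1 at 0.01 ± 0.09 (0.957). The other probe sets of TOP2A were at -1.59 and -1.34, each 2-fold or more lower in both pairs. The kinase CDK1 was at -1.21 ± 0.12, past the adjusted p but not 2-fold in both pairs. Centring the arrays gave 16 calls. The fit over all 8 arrays gave 0 calls for this list and for DNA replication. Its standard errors included 0.88 for BUB1 and 0.90 for TPX2, beside 0.13 for each in the A549 fit.

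Genes of DNA replication fell in 6 of 30 cases with 0 rises and a median of -0.78. They were the helicase subunit MCM6 (-1.74 ± 0.09), the thymidylate synthase TYMS (-1.53 ± 0.09), the sliding clamp PCNA (-1.38 ± 0.09), GINS2 (-1.31 ± 0.09), POLE2 (-1.19) and RFC3 (-1.15). PCNA stood at 12.77 and 12.90 in 2D and at 11.45 and 11.46 in 3D, but its second probe set was at 0.07, and that of RFC3 at 0.06. MCM7, another subunit of the same helicase as MCM6, was at 0.06 ± 0.09 (adjusted p = 0.576). The nucleotide reductase subunits RRM1 (-0.83) and RRM2 (-0.43) were below 0 and not called.

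Most members of both mitochondrial lists lay below 0, 16 of 20 and 39 of 43. Of 20 citric acid cycle genes 3 fell and 0 rose (median -0.78), and of 43 subunits of oxidative phosphorylation 5 fell and 0 rose (median -0.63). SUCLA2, a subunit of succinyl-CoA ligase, stood at 10.14 and 10.13 in 2D and at 7.78 and 7.95 in 3D. SDHD, the membrane anchor of complex II, stood at 10.85 and 10.94 in 2D and at 8.66 and 8.71 in 3D. Both genes were lower in both 3D arrays, and so were all 4 other probe sets of each. The isocitrate dehydrogenase subunit IDH3A fell by 1.47 on the log2 scale, and all 4 of its other probe sets were lower. Of the respiratory chain, NDUFA5 of complex I (-1.77 ± 0.09), ATP5PD of the ATP synthase (-1.28 ± 0.09), NDUFC2 (-1.17), ATP5MC1 (-1.13) and COX5A (-1.12) fell. Of these only NDUFC2 had other probe sets, with a median of -0.04, and its average over probe sets was -0.41. NDUFC2 (limma adjusted p = 0.0754) and ATP5MC1 (0.0522) did not pass with 8 arrays. The abundant cytochrome oxidase subunits COX6A1 (0.07), COX7C (0.19) and COX6B1 (-0.17) were not called. PPARGC1A, a coactivator of mitochondrial genes, stood at 9.07 and 9.40 in 2D and at 7.70 and 7.95 in 3D, and fell by 1.41 on the log2 scale. Cytosolic ribosomal proteins were at a median of 0.36, with 0 of 44 called, and at 0.18 when the arrays were centred.

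Plasma protein and airway secretory lists held rises, though most of their members were not called. Over all genes 5.78% rose and 1.86% fell, so the lack of falls in lists of this size says little. Of 16 plasma protein genes 5 rose and 0 fell, with a median of 0.52. TF stood at 7.34 and 7.12 in 2D and at 10.43 and 11.07 in 3D, a rise of 3.52 ± 0.16 (11.5-fold). Its 2D signals lay close to the array median of 7.32, so the fold is not exact. The other probe sets of TF were at 0.04, 0.78 and 3.44. SERPINA1, the elastase inhibitor alpha-1 antitrypsin, stood at 7.50 and 7.34 in 2D and at 10.31 and 9.66 in 3D, and its 3 other probe sets were higher too, at a median of 2.64. The copper carrier CP (1.97 ± 0.10), the complement component C3 (1.34 ± 0.11) and the fibrinogen chain FGA (1.26 ± 0.12) rose, and the other chains FGB (0.83) and FGG (0.32) were not called. Of 15 airway secretory genes 4 rose and 0 fell (median 0.48). The gel-forming mucin MUC5B stood at 11.59 and 10.52 in 2D and at 14.32 and 14.01 in 3D. Its 3 other probe sets were higher too, with a median of 3.13 beside 3.11 for the one used. The membrane mucins MUC16 (2.58 ± 0.09) and MUC1 (1.71 ± 0.09) and the trefoil peptide TFF3 (1.34 and 1.66 in the pairs) rose, while the abundant CEACAM6 (0.40), AGR2 (0.22) and SLPI (0.13) were not called. Of 10 lung lineage genes the surfactant lipid transporter ABCA3 rose alone (1.66 ± 0.09).

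Among genes of adhesion, the beta 4 integrin ITGB4, which anchors epithelia in hemidesmosomes, stood at 9.28 and 9.09 in 2D and at 11.63 and 11.41 in 3D. It rose by 2.33 ± 0.08 (5.04-fold), with all 7 other probe sets higher, and its laminin-binding relative ITGA3 rose by 1.42 ± 0.09. For ITGA3, 1 of the 2 other probe sets was higher in both pairs, the average over its probe sets was 0.69, and it did not pass with 8 arrays (limma adjusted p = 0.0534). Of 9 integrin subunits 2 rose, 0 fell and the median was 0.62. ITGB1, the most abundant, was at 0.61 ± 0.13 and not called. The laminin chain LAMA5 (1.52 ± 0.08) was the only one of 14 collagen and matrix list genes to rise, and COL7A1 was not on that list. Of 16 epithelial genes the desmosomal DSP rose (1.42 ± 0.09) and EPCAM fell. The epithelial cadherin CDH1 stood at 11.17 and 11.48 in 2D and at 11.09 and 11.40 in 3D, a difference of -0.08 ± 0.09 (adjusted p = 0.401). Its second probe set was at -0.74. The mesenchymal filament VIM was at 0.32 ± 0.13 (adjusted p = 0.0523), and 0 of 6 mesenchymal genes were called. The receptor kinase AXL, listed as a YAP target, rose by 1.63 ± 0.15, at 2.00 in the control pair and 1.27 in the gefitinib pair; it was the only one of 16 YAP targets called.

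NF-kB targets and chemokines rose in 7 of 14 cases, with 0 falls and a median of 1.08. NF-kB is an inflammatory transcription factor that induces its own inhibitors. NFKBIZ, a nuclear regulator of the family, stood at 8.19 and 8.77 in 2D and at 10.63 and 10.69 in 3D, and rose by 2.18 ± 0.12. TNIP1 (1.42), the neutrophil chemokine CXCL8 (1.32), the inhibitor NFKBIA (1.26), TNFAIP2 (1.26), the cytokine LIF (1.22) and CXCL2 (1.20) rose too, and the other 2 probe sets of CXCL8 had a median of -0.01. Of the 6 called members with other probe sets, only 2 had all of them higher. The average over probe sets was 0.44 for CXCL8, 0.51 for LIF and 1.00 for CXCL2. The abundant chemokine CXCL5 was at -0.09 ± 0.09 (adjusted p = 0.407). Apart from NFKBIZ these rises lay between 1.20 and 1.42, and 2 members were called with centred arrays and 1 with probe sets averaged. Of the interferon response list, 0 of 18 genes were called, with a median of 0.04.

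Of 21 NRF2 targets 3 fell and 0 rose, with a median of -0.05. GCLM stood at 11.72 and 11.84 in 2D and at 9.71 and 9.91 in 3D. HMOX1, which degrades heme, stood at 10.73 and 11.13 in 2D and at 9.04 and 9.34 in 3D, and ME1, a source of NADPH, differed by -1.53 ± 0.09. The reductases AKR1B10 (0.10), AKR1C2 (0.29) and AKR1C3 (0.11), near the top of the signal range, did not pass (adjusted p = 0.511, 0.0965 and 0.465). Among cholesterol synthesis genes IDI1 (-1.35 ± 0.09) and SQLE (-1.21 ± 0.09) fell, of 15 with a median of -0.47. The lipid droplet coat PLIN2 rose by 1.77 ± 0.08, and did not pass with 8 arrays (limma adjusted p = 0.0719). The chaperones HSP90AA1 and HSPE1 fell, at -1.35 ± 0.09 each. The second probe set of HSP90AA1 was at -0.02 and the average of both at -0.68, while both other probe sets of HSPE1 were lower. In the EGFR family, EGFR was at 0.26 ± 0.10 (adjusted p = 0.0503) and ERBB2 rose by 1.02 ± 0.08, just past 2-fold in both pairs at 1.04 and 1.00. The median of the other 4 probe sets of ERBB2 was -0.03. The mitochondrial aldehyde dehydrogenases ALDH2 (-1.14 ± 0.10) and ALDH1B1 (-1.11 ± 0.09) fell, of 13 in their list, and ALDH1A1, the most abundant, was at -0.27 ± 0.13. The death receptor FAS (-1.13 ± 0.08) was the only one of 16 p53 targets called. The peptide-loading factor TAPBP rose by 1.38 ± 0.09, with the median of its other 4 probe sets at -0.30. SEC11C of the signal peptidase (-1.35 ± 0.09) and the calponin CNN3 (-1.32 ± 0.09) fell, and the protease inhibitor SERPINE2 (1.22 ± 0.09) and the immediate early gene IER3 (1.22 ± 0.10) rose. In the lists of ERK output, ATF4 stress, unfolded protein response, autophagy, and Notch and Wnt feedback, 0 genes were called.

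**Figure D3:**
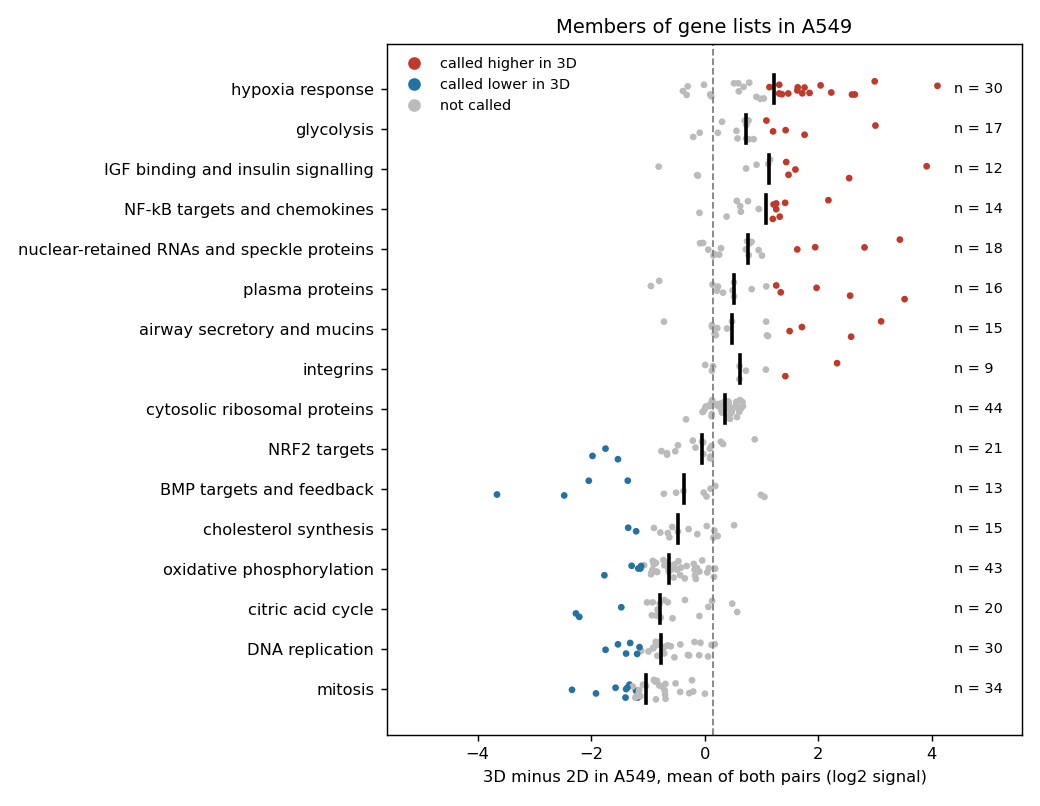
Each point is a tested member of 1 of 16 gene lists, placed by its 3D minus 2D difference in A549 (mean of both pairs, log2 signal), red where it rose, blue where it fell and grey where it was not called. Black bars are list medians and the dashed line is the median of all tested genes (0.15). Hypoxia genes have the median farthest to the right (1.23) and mitosis genes the one farthest to the left (-1.04).

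Nuclear-retained RNAs and nuclear speckle proteins rose in 4 of 18 cases, with 0 falls and a median of 0.76. MALAT1, a long noncoding RNA of speckles, stood at 10.57 and 10.06 in 2D and at 14.00 and 13.50 in 3D, a rise of 3.44 ± 0.09 (10.9-fold). The speckle protein SRRM2 stood at 9.63 and 9.73 in 2D and at 12.51 and 12.49 in 3D, and PNISR (1.95 ± 0.09) and NKTR (1.63 ± 0.09) rose too. The size of these rises depended on the probe set. The 3 probe sets of MALAT1 gave 1.71, 2.67 and 3.44, and the 5 of SRRM2 ran from 0.18 to 2.82.

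Among the called genes, the probe set used gave larger differences than the other probe sets of the same genes. These genes were called by the probe set used, so part of this gap follows from the selection. That probe set was also picked by its mean over arrays that include the 3D ones. Of the 634 genes that rose, 488 had other probe sets, and in 285 of these (58.4%) all of them were higher in both pairs. The median difference was 1.32 for the probe set used and 0.42 for the other ones, and in 48 genes no other probe set was higher in both pairs. Of the 204 that fell, 141 had other probe sets, all of them lower in 111 (78.7%), with medians of -1.26 and -0.91. ALG13, a glycosylation gene, is the extreme: the probe set used rose by 2.53, 1 other was at 1.35 and 3 were at -1.77, -1.55 and -1.07. For NDRG1 the 6 probe sets ran from 0.86 to 3.00, and for VEGFA the 10 ran from 0.09 to 2.44. When genes with any other probe set in a different direction were left out, 431 rose and 174 fell. When only other probe sets above the array median were asked to agree, an alternative chosen after seeing the data, the counts were 524 and 188.

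**Figure D4:**
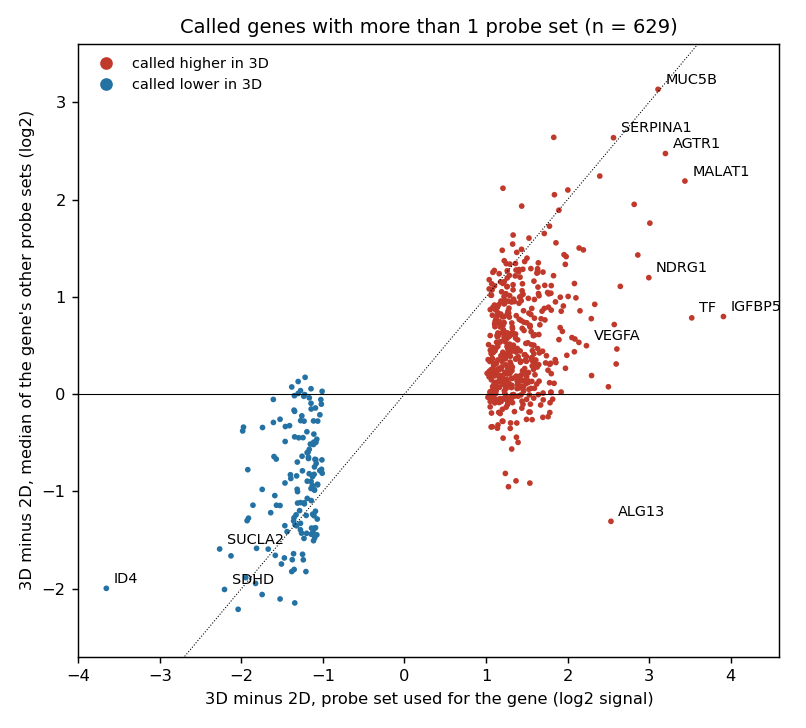
Each point is 1 of 629 called genes with more than 1 probe set, with the 3D minus 2D difference (log2 signal) of the probe set used on the horizontal axis and the median of the gene's other probe sets on the vertical axis. The dotted line marks equal values. Most red points (risen genes) lie below it and 74 have an opposite median, among them ALG13, while 7 blue points (fallen genes) do.

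HCC827 was used to see where A549 stands apart. The 13 ERK output genes, which EGFR inhibition is known to lower, had a median gefitinib minus control difference of 1.21 in its arrays labelled 2D (DUSP6 at 3.64) and of -1.28 in 3D (DUSP6 at -3.32). The pairs of that line are therefore unlike, and its mean is given only for reference. In that line 7.36% of tested genes were 2-fold or more higher in 3D by the mean of its pairs and 6.55% lower. Of the 634 genes that rose in A549, 368 were also higher by that measure in HCC827 (58.0%, and 45.6% of the HCC827 genes), and 0 were lower. Of the 204 that fell, 158 were lower (77.5%, and 22.0% of the HCC827 genes) and 1 was higher. ANGPTL4 was at 3.39 in HCC827 beside 4.10 in A549, MALAT1 at 2.79 beside 3.44, MUC5B at 2.75 beside 3.11, SDHD at -2.19 beside -2.21 and CCNB1 at -2.18 beside -2.34. Other large A549 differences were near 0 in HCC827. They were IGFBP5 (-0.18 in HCC827), AGTR1 (0.18), SERPINA1 (-0.24), ID4 (-0.01), CA2 (-0.00) and EPCAM (-0.14). The filter on low values used the A549 arrays only, so whether these genes were above background in HCC827 was not tested. The difference between lines was tested by the interaction of line and culture in limma over 8 arrays. It passed for 0 of 10968 genes, with 1483 at an unadjusted p under 0.05. The unlike HCC827 pairs enter the spread of this fit too, so it had little power. The smallest adjusted p was 0.0843, shared by AGTR1 and CCDC183, and IGFBP5 (0.126), ID4 (0.181), SERPINA1 (0.151) and EPCAM (0.169) also missed it. A difference between the lines is therefore not shown for these genes, nor is its absence.

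**Figure D5:**
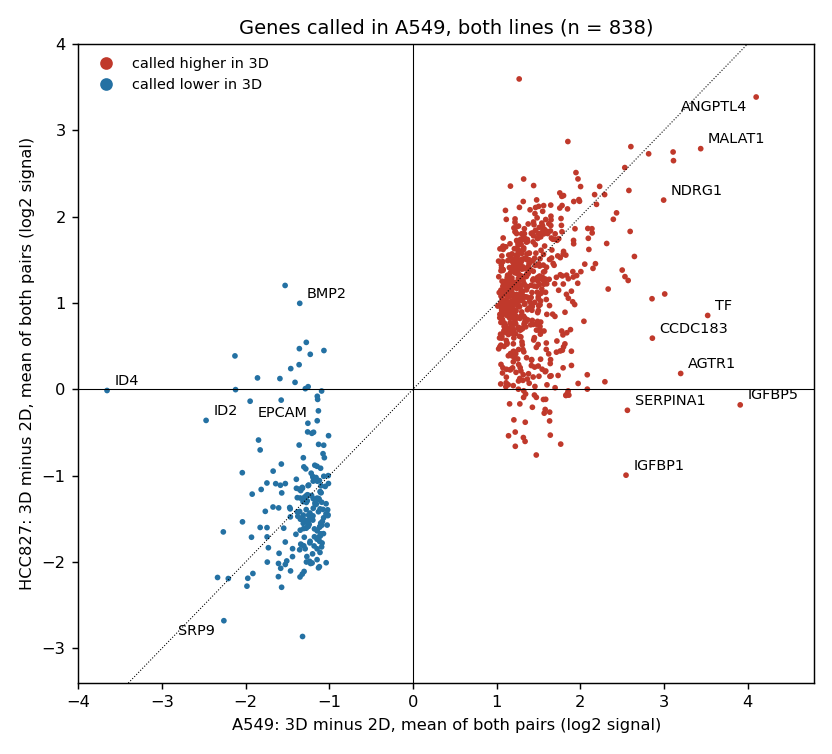
Each point is 1 of the 838 called A549 genes, with its mean 3D minus 2D difference (log2 signal) in A549 on the horizontal axis and in HCC827 on the vertical axis. The dotted line marks equal values. ANGPTL4 and MALAT1 lie near it, and IGFBP5 (-0.18 in HCC827) and ID4 (-0.01) lie near the horizontal zero line.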

How the data were processed

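RNA of 4 A549 cultures was measured on 1 array each. The deposited values are log2 signals, which the authors computed with RMA (robust multi-array averaging); the submitters' processing notes name R 3.2.1. No genome build is stated there. Of 49495 probe sets, 102 were controls and 45278 carried 1 gene symbol, of which 45208 matched RefSeq (GRCh38.p14, for names). Each of 18244 genes was represented by its probe set of highest mean over the 8 arrays. The 10968 genes past the filter were fitted with limma 3.58.1 (R 4.3.3; mean, treatment, culture; empirical Bayes with a variance trend). The fit had 1 residual degree of freedom and a prior of 8.36, with two-sided tests and Benjamini-Hochberg adjustment. HCC827 arrays were left out of it because their 2D pair opposes its labels, and an 8-array fit was an alternative. The script was tested on simulated data. The number of arrays limits the precision. Genes named are the 12 largest rises and falls with agreeing probe sets, up to 5 called and 3 abundant uncalled members of each list, members with opposed probe sets, genes fixed by name, and genes whose pairs differ by 1 or more. Members and the 46 lists were chosen with earlier results of these data known.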

Additional observations from a re-analysis of the deposited data

Results flagged for a closer look

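Some genes that changed in A549 differed in the opposite direction in both pairs of HCC827 arrays, paired by their labels. The HCC827 2D arrays oppose their labels in the ERK output genes, so this pairing is not certain. The mean 3D minus 2D difference in HCC827 (log2) was -0.26 for AXL, which rose by 1.63 in A549. It was -0.66 for IER3, which rose by 1.22, and -0.18 for IGFBP5, which rose by 3.91. SERPINE2 was at -0.50 in HCC827 beside 1.22 in A549, and STC2 at -0.76 beside 1.47. Of the genes that fell in A549, BMP2 was at 1.00 in HCC827 beside -1.35, and PPARGC1A at 0.0804 beside -1.41. The HCC827 means of PPARGC1A and IGFBP5 were thus close to 0. The interaction of line and culture in limma over 8 arrays did not pass for any of these 7. Its adjusted p was 0.106 for PPARGC1A, 0.126 for IGFBP5, 0.159 for STC2, 0.167 for IER3, 0.199 for AXL, 0.222 for SERPINE2 and 0.283 for BMP2.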

How the results depend on the processing

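Against 634 rises and 204 falls, averaging the probe sets of a gene gave 276 and 235, and the probe set with the largest variance gave 779 and 810. Centring each array gave 377 and 390, and taking differences relative to the median of all genes 416 and 358. A 1.5-fold rule gave 1863 and 828, and a 4-fold rule 31 and 6. Leaving out 1 array at a time left 1 array in 1 culture and kept the other pair whole. That pair was already 2-fold for every called gene, so these fits could not test the calls. The other filters on low values, no treatment term, no variance trend and a robust prior left both counts within 1.5 times. With all 8 arrays 577 and 160 were called. Of the 108 called genes of the lists and largest changes, 35 did not pass. They included all 9 mitosis genes, all 6 replication genes, 8 of the 16 hypoxia genes and 4 of the 5 glycolysis genes. The A549 differences were the same in that fit. Its spread also takes in the HCC827 arrays, whose 2D pair opposes its labels, so these losses cannot test the A549 calls alone. Of genes not called, CDH1 turned to 0.0699 without the 2D gefitinib array and to 0.0725 without the 3D control array. Its lowest value with 1 array left out was -0.24. MKI67 ranged from -0.59 (without 3D control) to 0.0536 (without 3D gefitinib). EGFR passed at 1.08, CDH1 at -0.74, VIM at 0.66 and MKI67 at -0.66 with the probe set of largest variance. The cause was not tested. No alternative estimates replicate scatter, since each condition had 1 array.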
